A study of Mus musculus with 5 samples.

Results

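The genes described here make and load the peptides that MHC class I molecules present. They were the 10 genes Psmb8, Psmb9, Psmb10, Psme1, Psme2, Tap1, Tap2, Tapbp, Tapbpl and Erap1 and were chosen by symbol for their role in the pathway, with earlier results of these data known. All 10 were found, each on 1 probe set, among 19505 named genes on the arrays. They were measured in 5 subcutaneous B16.F10 luc+GFP+ melanomas, grown from 1 mouse melanoma line in wildtype C57BL/6 mice aged 10 weeks, with 1 tumour per mouse and 1 Affymetrix Clariom S array per tumour. Checkpoint therapy was common to the whole design: anti-PD-1, which releases T cells from inhibition through PD-1, was injected on days 1, 4 and 8 after the melanoma cells. The 3 mice of the treated arm were also fed RG7112, an MDM2 inhibitor that frees the tumour suppressor p53 from MDM2, and the 2 control mice were fed its vehicle, a mix of corn oil and DMSO (5%). The oral doses were given on alternate days over 6 days, and tumours were taken on day 13. The RNA came from a mixture of melanoma cells and infiltrating immune cells, and no tumour without anti-PD-1 was analysed here. The vehicle tumours carry the numbers 3 and 4 in the labels and the RG7112 tumours 1, 2 and 3.

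Proteins in the cytosol are cut into peptides by the proteasome, a barrel-shaped protease. Interferons induce 3 catalytic subunits, encoded by Psmb8, Psmb9 and Psmb10, that replace their constitutive counterparts in newly built particles and form the immunoproteasome. Psme1 and Psme2 encode the 2 chains of the PA28 activator, which caps the barrel. The Tap1 and Tap2 chains form the transporter that carries peptides into the endoplasmic reticulum, where Erap1 trims them and tapasin, encoded by Tapbp, holds empty class I molecules next to the transporter. Tapbpl encodes TAPBPR, a relative of tapasin that edits the bound peptides. CD8 T cells read the resulting peptide and class I complexes on tumour cells and on antigen-presenting cells.

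The start-site windows of 4 of these genes are shown because Psmb8 and Tap1 had the largest changes, and Psme1 and Erap1 held the only matches to the core of an interferon-response element. RefSeq gave windows for 8 of the 10 genes (9 windows, assembly GRCm38.p6). Each sequence below covers 220 bases before the annotated start and the first 30 bases from it, 5′ to 3′ on the plus strand. Capitals mark matches to any of 4 motifs. The core of the interferon-stimulated response element (ISRE, GAAANNGAAA), the gamma-activated site (GAS, TTCNNNGAA) and the GC box (GGGCGG) were searched on both strands. The NF-kB consensus was searched only on the strand of each gene.
Tap1 (chr17:34187336-34187585): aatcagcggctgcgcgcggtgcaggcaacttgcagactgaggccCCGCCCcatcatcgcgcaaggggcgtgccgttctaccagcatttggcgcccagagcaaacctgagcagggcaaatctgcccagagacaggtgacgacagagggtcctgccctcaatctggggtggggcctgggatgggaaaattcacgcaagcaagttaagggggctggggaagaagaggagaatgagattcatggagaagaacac
Psmb8 (chr17:34197975-34198224): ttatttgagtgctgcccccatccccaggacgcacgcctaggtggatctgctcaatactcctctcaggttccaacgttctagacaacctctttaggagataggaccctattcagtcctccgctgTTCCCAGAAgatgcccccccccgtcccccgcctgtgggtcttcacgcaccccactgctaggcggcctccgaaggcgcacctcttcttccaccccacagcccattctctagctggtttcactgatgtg
Psme1 (chr14:55578274-55578523): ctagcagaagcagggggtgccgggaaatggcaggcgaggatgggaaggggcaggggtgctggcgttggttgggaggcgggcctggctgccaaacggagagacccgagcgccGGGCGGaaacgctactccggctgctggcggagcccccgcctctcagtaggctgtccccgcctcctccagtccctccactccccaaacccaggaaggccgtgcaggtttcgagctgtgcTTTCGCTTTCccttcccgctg
Erap1 (chr13:74639633-74639882): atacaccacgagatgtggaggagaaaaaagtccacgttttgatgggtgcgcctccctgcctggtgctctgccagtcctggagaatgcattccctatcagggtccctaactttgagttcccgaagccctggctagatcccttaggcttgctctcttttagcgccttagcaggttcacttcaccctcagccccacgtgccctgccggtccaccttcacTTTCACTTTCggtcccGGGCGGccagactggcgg

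Erap1 held an ISRE core at position -4 from its start, and Psme1 held one at position 10. The ISRE core occurred in 3.44% of all 32851 windows of 300 bases. Psmb8 held a GAS match at position -97, a motif found in 8.30% of windows. No NF-kB consensus was found on the searched strand of the 8 genes, and on that strand it occurred in 5.89% of windows. A GC box occurred in 35.7% of windows and in 6 of the 8 genes. The match in Tap1 and the match in Psmb9 are the same bases, read on opposite strands. No matches of different motifs overlapped in these windows. The annotated starts of Tap1 and Psmb9 lie 226 bases apart on opposite strands, so that their windows share 275 of 300 bases and the Tap1 sequence above also covers most of the Psmb9 upstream window, read on the other strand. A match is only a match of letters, and the absence of one covers only these windows.

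Signals are log2 values normalized by RMA, and each change is the RG7112 mean minus the vehicle mean, tested in limma over all 22203 probe sets. A gene was called at a Benjamini-Hochberg adjusted p under 0.05. All 10 genes were higher with RG7112, and 7 of them were called: Psmb8, Psmb9, Psmb10, Psme2, Tap1, Tapbpl and Erap1. Of all probe sets, 1.42% were called higher and 0.0315% lower. In all 10 genes each RG7112 tumour lay above each vehicle tumour, which held for 10.8% of all probe sets. The median change of the 10 genes was 0.96, against -0.03 over all probe sets. Psmb8 had the largest change and Tapbp the smallest. The calls rest on 2 vehicle tumours: without vehicle replicate 3 there were 3 calls among the 10 genes (Psmb8, Psmb9 and Tap1), and without vehicle replicate 4 there were 0 in limma, although 9 still had an unadjusted p under 0.05. Without RG7112 replicate 2 or 3 there were 4. Because the tissue is a mixture, more cells of a type and more RNA per cell cannot be told apart.

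**Figure D1:**
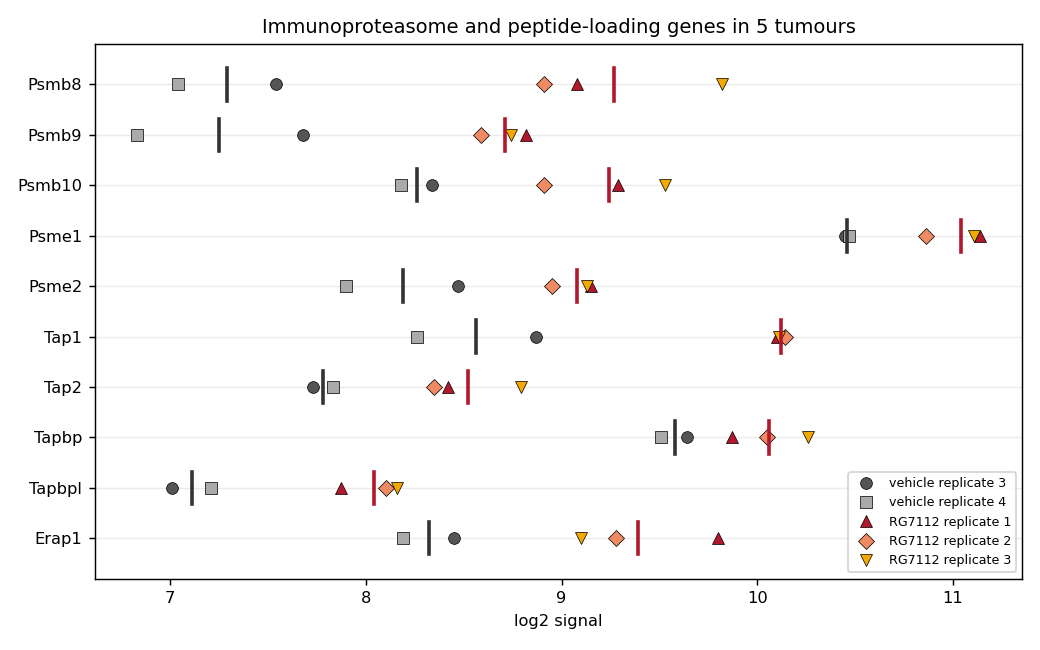
Log2 signal (horizontal axis) of the 10 genes (rows) in each tumour; points are single tumours and vertical bars are group means (dark, vehicle; red, RG7112). In every row the 3 RG7112 points lie to the right of the 2 vehicle points, with the widest gap for Psmb8 (1.37).

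Psmb8 (probe TC1700000622.mm.2), which encodes the chymotrypsin-like subunit LMP7, read 7.54 and 7.04 in vehicle replicates 3 and 4, and 9.08, 8.91 and 9.82 in RG7112 replicates 1, 2 and 3. The groups were 1.37 apart at their nearest points, and RG7112 replicate 3 was the highest tumour. The change was 1.98 ± 0.26 (SE; n = 2 and 3), or 3.95-fold with a 95% interval of 2.65 to 5.88 (limma adjusted p = 0.00260). Leaving out vehicle replicate 4 ended the call (1.73, adjusted p = 0.104). Psmb9 (TC1700001902.mm.2), which encodes LMP2, read 7.68 and 6.83 with vehicle and 8.82, 8.59 and 8.74 with RG7112. Its vehicle tumours lay 0.85 apart, the widest vehicle spread of the 10 genes, while the RG7112 tumours were close together (SD 0.11). The change of 1.46 ± 0.23, or 2.76-fold (1.95 to 3.91), passed (limma adjusted p = 0.00750), but leaving out vehicle replicate 4 ended the call (1.04, adjusted p = 0.121). With vehicle replicate 4 as the only vehicle tumour the change of Psmb9 was 1.89.

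Psmb10 (TC0800002842.mm.2), which encodes MECL-1, the third inducible catalytic subunit, read 8.34 and 8.18 with vehicle and 9.29, 8.91 and 9.53 with RG7112. The vehicle tumours were close, and RG7112 replicate 2 was the lowest of its group. The change was 0.98 ± 0.20, or 1.98-fold (1.47 to 2.67; limma adjusted p = 0.0317). The call was lost without vehicle replicate 3 (1.07, adjusted p = 0.228), vehicle replicate 4 (0.90, adjusted p = 0.382), RG7112 replicate 1 (0.96, adjusted p = 0.0804) or RG7112 replicate 3 (0.84, adjusted p = 0.105). All 3 inducible subunits were thus called with all tumours in, but they differed in how far the call depended on single tumours.

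The 2 PA28 chains are used together in 1 ring. Psme1 (TC1400000784.mm.2), the alpha chain, read 10.45 and 10.47 with vehicle and 11.14, 10.86 and 11.11 with RG7112. Its vehicle tumours were the most alike of the 10 genes, and its groups were 0.40 apart. The change of 0.58 ± 0.16, or 1.5-fold (1.17 to 1.91), did not pass (limma adjusted p = 0.170), but passed with an intensity trend in the variance (adjusted p = 0.0198). Psme2 (TC1400002091.mm.2), the beta chain, read 8.47 and 7.90 with vehicle and 9.15, 8.95 and 9.13 with RG7112, with tight RG7112 values and vehicle tumours 0.57 apart. Its change was 0.89 ± 0.19, or 1.85-fold (1.38 to 2.48), and its limma adjusted p of 0.0495 lay next to the threshold. That call was lost in 8 of 14 alternatives, among them quantile normalization (adjusted p = 0.0784), cyclic loess (adjusted p = 0.0645) and each tumour left out, from 0.61 without vehicle replicate 4 (adjusted p = 0.523) to 1.18 without vehicle replicate 3 (adjusted p = 0.0527).

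Tap1 (TC1700000621.mm.2), an ATP-binding chain of the peptide transporter, read 8.87 and 8.26 with vehicle and 10.10, 10.14 and 10.11 with RG7112. The RG7112 tumours were nearly identical (SD 0.02), and the vehicle tumours were 0.62 apart. The change was 1.55 ± 0.19, or 2.94-fold (2.19 to 3.94), with the smallest p of the 10 genes (limma adjusted p = 0.00184). Of the 5 leave-one-out fits, only that without vehicle replicate 4 lost the call (1.25, adjusted p = 0.0570). Tap2 (TC1700000623.mm.2), the partner chain, read 7.73 and 7.83 with vehicle and 8.42, 8.35 and 8.79 with RG7112. Its groups were 0.52 apart, and the change of 0.74 ± 0.18, or 1.67-fold (1.28 to 2.19), did not pass (limma adjusted p = 0.0842). It passed with an intensity trend (adjusted p = 0.0408) and was not called in any leave-one-out fit (adjusted p from 0.102 to 0.611).

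Tapbpl (TC0600003139.mm.2) read 7.01 and 7.21 with vehicle and 7.87, 8.10 and 8.16 with RG7112. Here vehicle replicate 4 was the higher of the 2 vehicle tumours, and the groups were 0.65 apart. The change was 0.93 ± 0.17, or 1.91-fold (1.48 to 2.46; limma adjusted p = 0.0163), and it was called only without RG7112 replicate 1 among the leave-one-out fits (1.02, adjusted p = 0.0171). The other fits gave an adjusted p of 0.291 without vehicle replicate 3, 0.143 without vehicle replicate 4, 0.0646 without RG7112 replicate 2 and 0.0658 without RG7112 replicate 3. Tapbp (TC1700002778.mm.2) read 9.64 and 9.51 with vehicle and 9.87, 10.05 and 10.26 with RG7112. It had the narrowest gap between the groups, 0.23, and its change of 0.49 ± 0.17, or 1.40-fold (1.08 to 1.81), did not pass (limma adjusted p = 0.344) and was not called in any of 14 alternatives.

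Erap1 (TC1300000904.mm.2), the peptidase that shortens the amino end of peptides, read 8.45 and 8.19 with vehicle and 9.80, 9.28 and 9.10 with RG7112. RG7112 replicate 1 was the highest tumour and replicate 3 the lowest of its group, whereas in Psmb8 and Psmb10 replicate 3 was the highest. The change was 1.07 ± 0.21, or 2.11-fold (1.52 to 2.91; limma adjusted p = 0.0313). The call ended without vehicle replicate 3 (1.20, adjusted p = 0.187), vehicle replicate 4 (0.94, adjusted p = 0.407) or RG7112 replicate 2 (1.13, adjusted p = 0.0671).

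**Figure D2:**
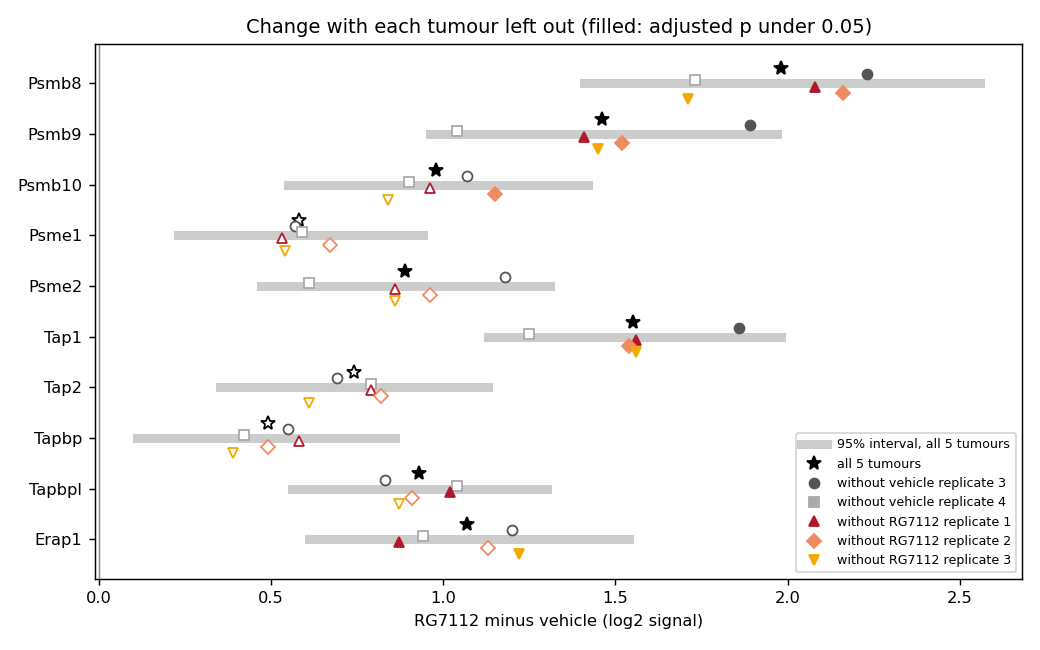
Change of each gene (RG7112 minus vehicle, log2 signal) with all 5 tumours (stars) and with each tumour left out (other symbols); filled symbols passed an adjusted p of 0.05, and grey bars are 95% intervals from all 5 tumours. Since the groups do not overlap, no tumour left out can turn a sign; the changes ran from 0.39 for Tapbp to 2.23 for Psmb8, and the fit without vehicle replicate 4 has only open symbols.

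The tumours did not keep 1 order across the genes. RG7112 replicate 3 was highest in 5 genes, replicate 1 in 4 and replicate 2 in 1, and RG7112 replicate 2 was the lowest of its group in 6. Measured from each gene's vehicle mean, the median gene was higher by 1.00, 0.86 and 1.03 in RG7112 replicates 1, 2 and 3. Vehicle replicate 4 was below vehicle replicate 3 in 7 of the 10 genes, the exceptions being Psme1, Tap2 and Tapbpl.

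Differences between genes were compared within each array, where a shift common to the array cancels, with an exact two-sided permutation test over the 10 assignments of the tumours (smallest possible p = 0.1). There were 7 such pairs, and the smallest p adjusted over them was 0.140, so that none could pass. Psmb9 minus Psmb6, its constitutive counterpart, was -2.10 and -2.77 with vehicle and -1.35, -1.04 and -1.20 with RG7112, a difference in change of 1.24 ± 0.28 (SE; exact p = 0.1). Without vehicle replicate 4 that difference was 0.90 and without vehicle replicate 3 it was 1.57. Psmb10 minus Psmb7, its constitutive counterpart, was -2.21 and -2.17 with vehicle and -1.24, -1.45 and -1.13 with RG7112, a difference of 0.92 ± 0.13 (exact p = 0.1). In both pairs the groups did not overlap. Psmb5, the counterpart of Psmb8, was not analysed here.

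The remaining 5 pairs, all among the 10 genes, set partners or relatives side by side. They were added after the data were seen, and their intervals were not adjusted for that choice. The change of Tap1 exceeded that of Tap2 by 0.81 ± 0.33, with a 95% interval of -0.22 to 1.85 (exact p = 0.1). Tap1 minus Tap2 was 1.15 and 0.42 with vehicle and 1.68, 1.79 and 1.32 with RG7112, without overlap. The difference in change was 0.45 without vehicle replicate 4 and 1.17 without vehicle replicate 3. The change of Psmb8 exceeded that of Psmb10 by 1.00 ± 0.23 (interval 0.27 to 1.72, exact p = 0.1), and that of Tapbpl exceeded that of Tapbp by 0.45 ± 0.14 (interval 0.02 to 0.88, exact p = 0.1; 0.28 without vehicle replicate 3). Psmb8 against Psmb9 gave 0.52, with an interval of -0.65 to 1.69 (exact p = 0.3; 0.25 without RG7112 replicate 3 and 0.34 without vehicle replicate 3). Psme2 against Psme1 gave 0.31, with an interval of -0.39 to 1.02 (exact p = 0.2), a value that was 0.02 without vehicle replicate 4 and 0.60 without vehicle replicate 3. The intervals of Tap1 against Tap2, Psmb8 against Psmb9 and Psme2 against Psme1 include differences of either sign. Probe sets can differ in how steeply they respond to RNA, which was not tested.

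**Figure D3:**
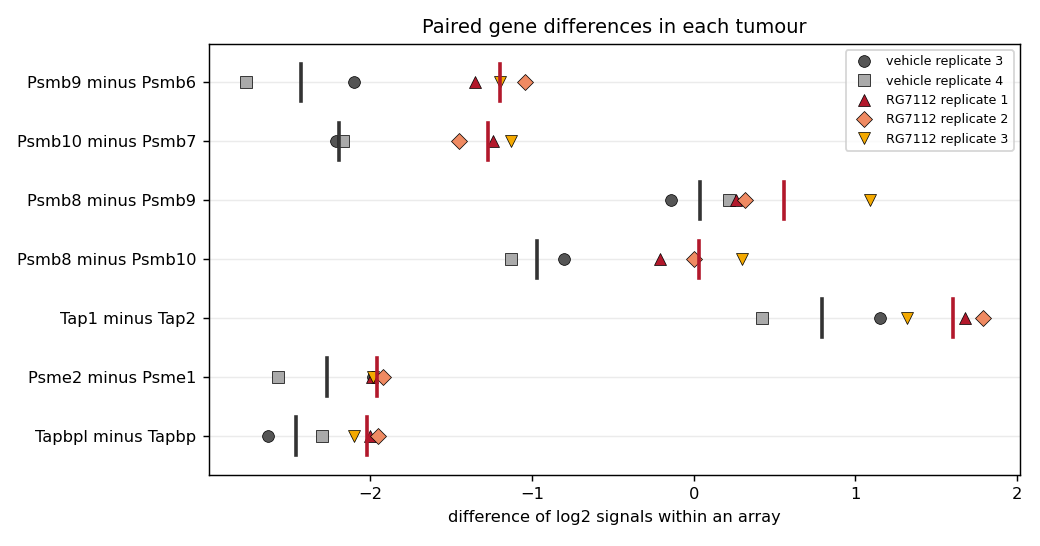
Difference of log2 signals between 2 genes of the same array (horizontal axis) for 7 pairs (rows); points are single tumours and vertical bars are group means. The groups overlap for Psme2 minus Psme1, and for Psmb8 minus Psmb9 vehicle replicate 4 (0.22) lies next to RG7112 replicate 1 (0.26).

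The rest of the proteasome had changes that centred near 0. Of 30 measured constitutive subunits of the 20S barrel and the 19S cap, 0 passed in limma and 1 had an unadjusted p under 0.05. Their median change was 0.04 and they ranged from -0.19 to 0.56. In 4 of the 30, or 13.3%, every RG7112 tumour lay above every vehicle tumour, near the 10.8% of all probe sets. The largest was Psmb2, a non-catalytic barrel subunit, with 0.56 (adjusted p = 0.254). Psmb6 and Psmb7, the constitutive catalytic subunits that Psmb9 and Psmb10 replace, differed by 0.23 and 0.07 (adjusted p = 0.821 and 0.957). Psmb6 read 9.77 and 9.60 with vehicle and 10.17, 9.63 and 9.94 with RG7112, so that its groups overlapped. Of 8 assembly factors and other activators 0 passed in limma, and only Psmg3 had an unadjusted p under 0.05. Psmg3 was lower without overlap (-0.40, limma adjusted p = 0.502). Psmg4 and Psmg2 were higher without overlap, by 0.29 and 0.27 (limma adjusted p = 0.655 and 0.695). The 8 also included Pomp, which helps to build new proteasomes (0.12, adjusted p = 0.913), and Psme3, the nuclear relative of the PA28 chains (0.08, adjusted p = 0.950). Pomp and Psme3 were named for their role, outside the naming rule.

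**Figure D4:**
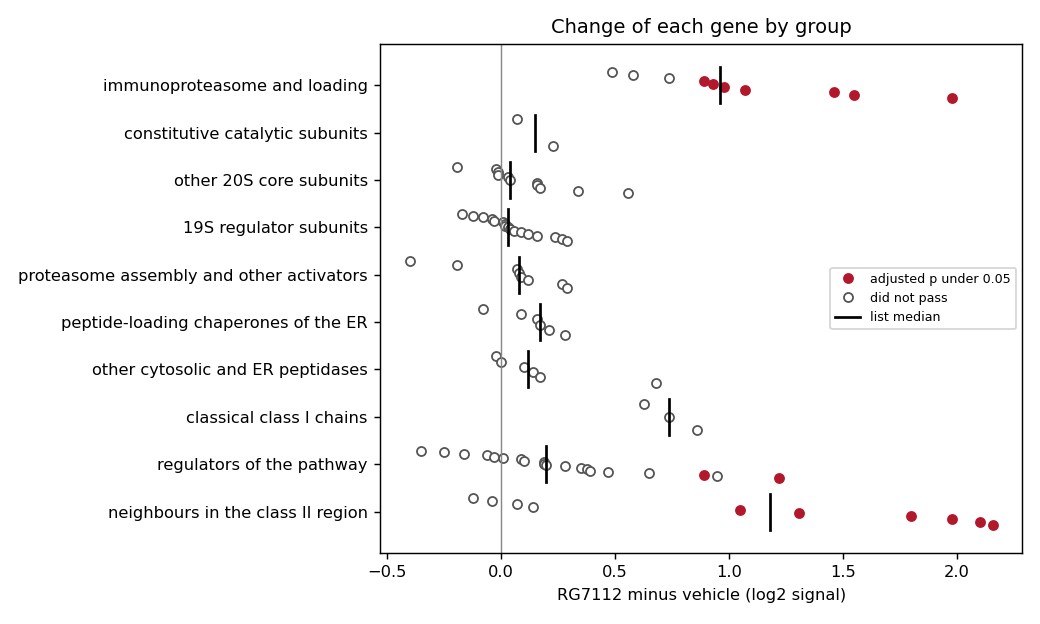
Change of each measured gene (RG7112 minus vehicle, log2 signal) in the immunoproteasome and loading set and in 9 related lists (rows); filled points passed an adjusted p of 0.05 and black bars are list medians. Filled points occur in the top row (7 of 10), among the regulators (2 of 20) and among the class II region genes (6 of 10), while the proteasome lists centre near 0.

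Lists of other genes of the route were also read: chaperones, further peptidases and the classical class I chains, and none of their measured members was called. Of 6 chaperones of the endoplasmic reticulum 0 passed in limma and 0 had an unadjusted p under 0.05. Their median change was 0.17, with Pdia3, the disulphide isomerase bound to tapasin, at 0.28 and calreticulin, Calr, at 0.21. In 4 of the 6 chaperone genes every RG7112 tumour lay above every vehicle tumour, against 10.8% of all probe sets. Of 6 other peptidases 0 passed, with 1 at an unadjusted p under 0.05, the aminopeptidase Lap3, at 0.68 (limma adjusted p = 0.10). The class I chains that receive the peptides, H2-K1, H2-D1 and B2m, had differences of 0.86, 0.74 and 0.63. H2-D1, for example, read 9.04 and 8.81 with vehicle and 9.47, 9.87 and 9.67 with RG7112. None of these 3 passed in limma (adjusted p = 0.0549, 0.0792 and 0.106), although their groups did not overlap and all 3 had an unadjusted p under 0.05.

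Among 20 measured regulators, 2 were called higher, 0 were called lower and 18 did not pass, against 1.42% of all probe sets called higher. In 10 of the 20 every RG7112 tumour lay above every vehicle tumour, against 10.8% of all probe sets. Irf1, a transcription factor that binds ISRE sequences and is induced by interferon gamma, read 8.81 and 8.24 with vehicle and 9.86, 9.78 and 9.58 with RG7112. It rose by 1.22 ± 0.20 (limma adjusted p = 0.00890), and the call was lost without vehicle replicate 4 (adjusted p = 0.191). Stat2, part of the type I interferon signalling complex, read 6.62 and 6.89 with vehicle and 7.73, 7.56 and 7.65 with RG7112. It rose by 0.89 ± 0.16 (limma adjusted p = 0.0181), and was called in 1 of the leave-one-out fits, without RG7112 replicate 2 (adjusted p = 0.0466; otherwise 0.0505 to 0.327). Irf9, the DNA-binding partner of Stat2, had a difference of 0.65 (adjusted p = 0.0786), Ciita of 0.95 (adjusted p = 0.0863) and Jak2 of 0.47 (adjusted p = 0.474), none of which passed. Rfxap differed by -0.35 and Jak1 by -0.16, each lower without overlap (limma adjusted p = 0.535 and 0.857). Of the 20 regulators 6 had an unadjusted p under 0.05, and of these only Rfxap was lower. The interferon genes Ifng and Ifnb1 differed by 0.38 and 0.20 (limma adjusted p = 0.79 and 0.799). Neither passed, both read below the array medians in all tumours, and the groups overlapped for Ifng. The receptor genes Ifngr1, Ifngr2, Ifnar1 and Ifnar2 differed by -0.03, 0.01, 0.10 and 0.09, and none passed. Nlrc5 and Nfkb1 were not analysed here.

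Psmb9, Tap1, Psmb8 and Tap2 follow each other without another protein-coding gene between them inside the class II region of the mouse MHC on chromosome 17, in the gene order of GRCm38.p6. Of 10 neighbours measured in that region, 6 rose, 0 fell and 4 did not pass, against 1.42% of all probe sets called higher. The 4 genes are flanked by H2-DMa, H2-DMb2 and H2-DMb1, whose products load class II molecules, on the Psmb9 side, and by H2-Ob beyond Tap2. H2-DMa rose by 2.10 ± 0.17, H2-DMb1 by 1.31 ± 0.16 and H2-DMb2 by 1.05 ± 0.16 (limma adjusted p = 0.000303, 0.00181 and 0.00750). Without vehicle replicate 4, H2-DMb1 and H2-DMb2 were not called (adjusted p = 0.0597 and 0.113), nor was H2-DMb2 without vehicle replicate 3 (adjusted p = 0.143). The other 3 that rose were the class II chains H2-Eb1 (2.16 ± 0.23), H2-Aa (1.98 ± 0.18) and H2-Ab1 (1.80 ± 0.17), called in all 5 leave-one-out fits, as was H2-DMa. At the ends of the stretch, Brd2, a ubiquitous chromatin reader, differed by -0.04 and H2-Ob by 0.07 (adjusted p = 0.976 and 0.959). On chromosome 14 the order was Psme1, Emc9, Psme2, Rnf31 and Irf9, so that both PA28 genes and Irf9 are near neighbours, with differences of 0.58, 0.89 and 0.65, of which only that of Psme2 passed.

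Markers of immune cells moved in the same tumours. Of 16 measured macrophage and monocyte markers 11 rose, 0 fell and 5 did not pass, against 1.42% of all probe sets called higher. The list's mean level was 6.46 and 6.10 with vehicle and 7.90, 7.50 and 7.60 with RG7112, a shift of 1.39. Without vehicle replicate 4 only Aif1 and Fcgr4 of the 11 kept the call (adjusted p of the other 9 from 0.0574 to 0.184). Aif1, which encodes the macrophage protein IBA1, rose by 2.57 ± 0.20 and the Fc receptor gene Fcgr4 by 2.48 ± 0.26. The median change of the list was 1.40. Mrc1 and Cd14 did not pass, and their groups overlapped, with a difference of 0.29 for each. Of 8 general leukocyte genes 5 rose, 0 fell and 3 did not pass. Ptprc, which encodes CD45, was among the 5. It read 6.62 and 6.59 with vehicle and 8.75, 8.75 and 8.12 with RG7112 (1.93 ± 0.21, limma adjusted p = 0.000776). The 3 that did not pass were Coro1a (0.35), Was (-0.07) and Arhgdib (-0.02). The mean level of the 8 genes shifted by 0.90, next to 1.07 for the mean of the 10 immunoproteasome and loading genes. Of these 5 leukocyte genes, Ptprc and Laptm5 kept the call without vehicle replicate 4, and Ptprc, Laptm5 and Cd53 without vehicle replicate 3. The part of these cells in the changes of the 10 genes was not tested.

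The other marker lists shifted less. Of 9 T cell genes 1 was called (Cd8b1, 0.90 ± 0.18, adjusted p = 0.0314), a call lost with any tumour left out (adjusted p from 0.0566 to 0.425), and the list mean shifted by 0.45. In the T cell list 4 of 9 genes had an unadjusted p under 0.05. In 5 of the 9 every RG7112 tumour lay above every vehicle tumour, against 10.8% of all probe sets. Of 8 dendritic cell genes 2 had an unadjusted p under 0.05. In 2 of the 8 every RG7112 tumour lay above every vehicle tumour, against 10.8% of all probe sets. Zbtb46 was lower without overlap, by -0.23. Of these 8 genes 1 was called (Itgax, 0.98 ± 0.20, adjusted p = 0.0376), and the list mean shifted by 0.16. Itgax kept its call without RG7112 replicate 3 (adjusted p = 0.0165) but in no other leave-one-out fit (adjusted p from 0.0923 to 0.434). The defining dendritic cell genes Xcr1, Clec9a and Flt3 read from 3.23 to 4.29 in all tumours, below the array medians of 5.76 to 5.81, whereas Zbtb46 read from 5.78 to 6.17 and Ccr7 from 6.00 to 6.32. Of 7 endothelial genes 1 was called (Kdr, 1.01 ± 0.19, adjusted p = 0.0203), but not without vehicle replicate 3 (adjusted p = 0.370) or vehicle replicate 4 (adjusted p = 0.111), nor without RG7112 replicate 2 or 3. The endothelial list mean shifted by 0.49, and 4 of its 7 genes had an unadjusted p under 0.05. In 5 of the 7 every RG7112 tumour lay above every vehicle tumour, against 10.8% of all probe sets. Shifts were 0.37 for NK cells, 0.15 for neutrophils, 0.19 for fibroblasts and -0.11 for B cells, and 0 members of these lists were called in limma (3, 1, 1 and 1 at an unadjusted p under 0.05).

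Melanocyte lineage genes, which mark the tumour cells, were high in all tumours. Tyrp1, an enzyme of pigment synthesis, read from 12.91 to 13.08 and Dct from 12.97 to 13.05. Of 12 lineage genes 0 passed in limma, and the mean shifted by 0.18, from 10.76 to 10.94. The 3 with an unadjusted p under 0.05 were higher with RG7112 without overlap: Ednrb by 0.63, Oca2 by 0.38 and Gpr143 by 0.37 (limma adjusted p = 0.157, 0.511 and 0.521). In 5 of the 12 every RG7112 tumour lay above every vehicle tumour, against 10.8% of all probe sets.

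**Figure D5:**
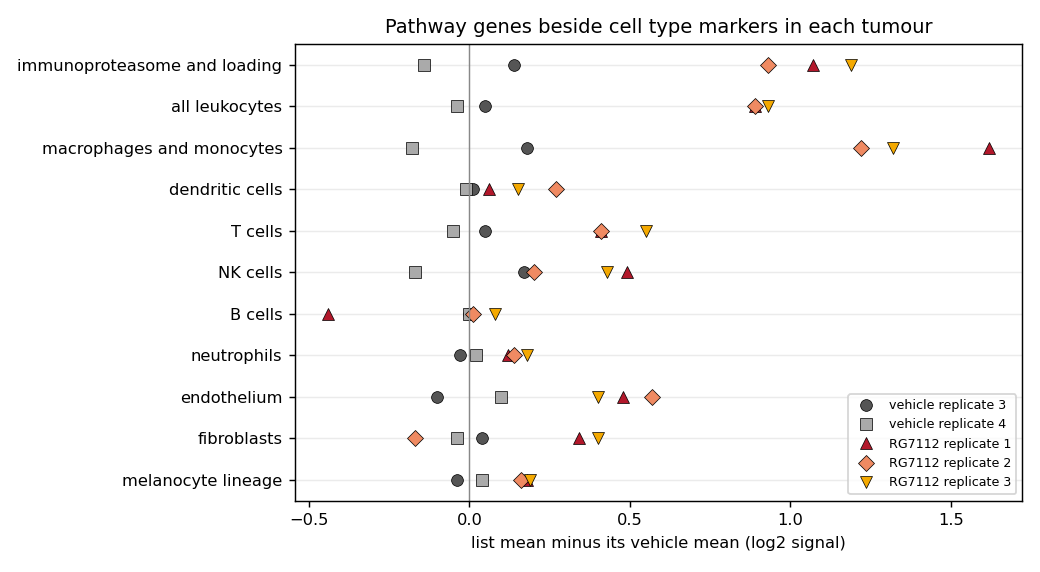
Mean log2 signal of each list minus its vehicle mean (horizontal axis), for the 10 immunoproteasome and loading genes and for 10 marker lists (rows); points are single tumours. The top row and the leukocyte and macrophage rows have the largest shifts (1.07, 0.90 and 1.39), and the melanocyte lineage row shifted by 0.18.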

How the data were processed

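Whole-tumour RNA from 5 mice was measured on 1 Affymetrix Clariom S array per tumour. The deposited values are log2 signals per probe set, and the submitters' processing notes name oligo and RMA, with versions, options and genome build not given in the sources used here. Values ran from 2.53 to 13.3. Scan dates were not used here, so array batches were not tested. Of 22203 probe sets, 19572 had 1 gene symbol and 2631 none. Each of the 10 genes had 1 probe set, and other genes were represented by the one with the highest mean.

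The contrast of RG7112 minus vehicle used limma 3.58.1 under R 4.3.3 (lmFit and default eBayes; 3 residual and 7.92 prior degrees of freedom), with Benjamini-Hochberg adjustment over all probe sets. The script was tested on simulated data. The number of arrays limits the precision. The 10 genes and the lists were chosen with earlier results of these data known. Named genes were the 10, the called genes of each pathway list or otherwise up to 3 with the smallest p, up to 2 per marker list and the 5 nearest profiles. Exceptions, named after their values were seen, were Psme3, Pomp, Ciita, Jak2, Irf9, Brd2, H2-Ob, Calr, Cd53, Tyrp1, Dct, Gpr143, Clec9a, Flt3, Zbtb46 and Ccr7. Further such exceptions were Coro1a, Was, Arhgdib, Rfxap, Jak1, Mrc1, Cd14, Ifng, Ifnb1, Ifngr1, Ifngr2, Ifnar1 and Ifnar2. Of 196 listed genes 181 were measured; Psmb8 minus Psmb5 was planned but not computed. The 5 pairs among the 10 genes were added after the data were seen. Alternatives were an intensity trend or robust option in eBayes, array weights, renormalization (quantile, cyclic loess), dropping the dimmest 40% of probe sets, using 1 probe set per gene or the mean of all, adjusted p under 0.10, at least 1.5-fold, and each tumour left out; where this left 1 vehicle tumour, it is assumed to vary like the RG7112 tumours.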

Additional observations from a re-analysis of the deposited data

How the results depend on the processing

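Most alternatives could not turn a sign, since they leave the changes as they are or leave out a tumour from groups that do not overlap. Over 140 fits of single genes, 115 stayed on the same side of the threshold, 22 lost a call (19 with a tumour left out) and 3 gained one. Adjusted p under 0.10 and at least 1.5-fold were not refits and kept the p-values of the main fit. They could not lose a call, since each called gene changed by more than 1.5-fold. The gain of Tap2 at adjusted p under 0.10 came from the looser threshold alone. Outside the leave-one-out fits, 6 to 9 of the 10 genes were called. With a tumour left out, 0 to 5 of them were called, 65 to 273 of all probe sets (322 with all tumours) and 4 to 8 of the 83 other pathway genes (8 with all tumours). The lowest count of each came without vehicle replicate 4. The median change of the 10 genes ran from 0.87 to 1.12, and Psmb9 minus Psmb6 from 0.90 to 1.57. Cyclic loess and leaving out dim probe sets moved the median of all probe sets from -0.03 to 0. No paired analysis was possible because the groups share only 1 replicate number. Groups of 2 and 3 are too small for a check of single outlying tumours.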

Other observations

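Among 19495 other named genes, the 5 whose profile over the 5 tumours lay nearest to the mean profile of the immunoproteasome and loading genes were Csf1r, H2-T23, Trim14, Rgs2 and Pnp. Nearness was the root mean square distance between log2 profiles, each centred on its own mean, and a like profile over 5 tumours says nothing of shared function or control. The 10 genes themselves, which were not picked for nearness, lay at 0.128 to 0.509. Csf1r, the receptor for the macrophage growth factor CSF1, lay at 0.024. It was picked as the nearest of 19495 genes, so its smaller distance shows no closer tie to the set. It read 7.07 and 6.77 with vehicle and 7.98, 7.90 and 8.11 with RG7112, a change of 1.08 ± 0.17 (limma adjusted p = 0.00722; 0.182 without vehicle replicate 4). H2-T23, a non-classical class I gene that presents leader peptides, lay at 0.074 and changed by 1.17 ± 0.18 (adjusted p = 0.00606; 0.158 without vehicle replicate 4). Trim14, an interferon-induced adaptor, changed by 1.10, the G protein regulator Rgs2 by 1.01 and Pnp, an enzyme of purine salvage, by 1.00. All 5 were chosen for this likeness, so their changes are a description.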
